A study of Mus musculus with 12 samples.

Results

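Mature miRNAs from 4 imprinted loci in 3 regions outside the Dlk1-Dio3 domain were followed through mouse fibroblasts, embryonic stem cells and 3 kinds of reprogrammed cells. They were chosen by name and genomic origin, as either arm of miR-675 (from H19), miR-483 (from Igf2), miR-296 and miR-298 (beside Gnas) and miR-335 (from Mest), and this rule found 10 of the 1042 miRNAs in the table, both arms of each of 5 hairpins. Small RNA libraries were made from mouse embryonic fibroblasts (MEFs, strain C57B6/129SvJae F1, 3 libraries), embryonic stem cells (ESCs, line E14, strain 129/ola, 3 libraries), induced pluripotent stem cells (iPSCs, 2), nuclear transfer ESCs (NT-ESCs, 2) and NT-iPSCs (2). The iPSCs came from MEFs given Oct4, Sox2, Klf4 and c-Myc on a dox-inducible lentivirus. MEF nuclei placed in oocytes gave the NT-ESCs, and an iPSC nucleus placed in an enucleated oocyte the NT-iPSCs. All 3 reprogrammed types were derived from the same MEFs, so they differ from the E14 line in strain as well as in origin. Replicates were batches of RNA from 1 cell line per type, and p values measure the spread between batches, not between lines. All pluripotent cells were grown on irradiated MEF feeders with leukaemia inhibitory factor.

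An imprinted gene is transcribed mainly from the maternal or the paternal chromosome, under the control of a differentially methylated region, and the miRNAs inside or beside it generally follow the same parental rule. H19 is a maternally expressed long non-coding RNA that carries miR-675 and lies close to Igf2, a paternally expressed fetal growth factor gene with miR-483 in an intron. Mest, the host of miR-335, is paternally expressed in the embryo, and miR-296 and miR-298 lie beside Nespas, a paternally expressed antisense transcript of the Gnas locus. Imprints can be lost or altered in cultured and reprogrammed pluripotent cells. A miRNA hairpin yields a 5p and a 3p mature strand, and each strand pairs with messenger RNAs mainly through its seed.

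The mature sequences are shown because each arm of these hairpins is a different regulator. RefSeq (GRCm38.p6) held all 10, written 5′ to 3′ with the seed, bases 2 to 8, in capitals.
mmu-miR-675-5p: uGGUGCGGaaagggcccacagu
mmu-miR-675-3p: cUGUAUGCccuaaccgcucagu
mmu-miR-483-5p: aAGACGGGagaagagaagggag
mmu-miR-483-3p: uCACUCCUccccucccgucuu
mmu-miR-296-5p: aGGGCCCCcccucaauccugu
mmu-miR-296-3p: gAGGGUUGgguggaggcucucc
mmu-miR-298-5p: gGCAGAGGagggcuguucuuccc
mmu-miR-298-3p: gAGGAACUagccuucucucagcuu
mmu-miR-335-5p: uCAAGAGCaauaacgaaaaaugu
mmu-miR-335-3p: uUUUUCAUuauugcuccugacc
The 10 seeds all differ, and none is shared with another of the 804 miRNAs of the table that had a RefSeq mature sequence under the same name. The arms of miR-296 and miR-298 have a GC content of 50% to 68.2%, and those of miR-335 30.4% and 36.4%.

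Positions are those of GRCm38, since the build named in the submitters' processing notes, mm8, was not used here. The miR-675 hairpin (chr7:142577064-142577147, minus strand) lies within H19 and is exonic in 3 of the 4 annotated H19 transcripts that cover it. The miR-483 hairpin (chr7:142654924-142654996, minus strand) is intronic in all 7 Igf2 transcripts over it, 77776 bases from the miR-675 hairpin. The miR-335 hairpin (chr6:30741299-30741396, plus strand) is intronic in all 7 Mest transcripts over it and on the same strand. The hairpins of miR-296 (chr2:174267047-174267125) and miR-298 (chr2:174267504-174267585) are 378 bases apart on the minus strand and overlap no annotated host gene. The 3′ end of Nespas, on the same strand, is 13651 bases away from the miR-298 hairpin, and the start of Gnas, on the plus strand, 16734 bases. The hairpins of miR-296 and miR-675 are printed whole, with the 5p arm and then the 3p arm in capitals, because the results below turn on which arm held the reads.
miR-296 hairpin: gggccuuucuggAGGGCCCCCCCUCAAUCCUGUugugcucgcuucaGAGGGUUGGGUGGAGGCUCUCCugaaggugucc
miR-675 hairpin: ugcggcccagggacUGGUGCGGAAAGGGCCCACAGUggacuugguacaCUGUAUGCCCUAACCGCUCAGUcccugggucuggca

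The deposited values were variance stabilized (VST) and on a log2 scale. They could be turned back into whole reads, 4863365 to 8608689 on miRNAs per library, so that 3 reads stand for a CPM (reads scaled to the library total) of 0.348 to 0.617. Levels are given as normalized reads, the reads divided by the size factor of the library, and differences between groups in VST, where a positive value means a higher mean in the group named first, with the standard error (SE). Groups were compared with limma over the 732 miRNAs that had 10 or more reads in 2 or more libraries, with p values adjusted by Benjamini-Hochberg over all of these. All 10 members were tested. Intervals and floors cover counting error only, since amplified reads are not independent molecules. Below about 10 reads, VST differences can be smaller or larger than the log2 ratio of mean reads. The labels of the cells were checked on markers: 10 miRNAs of pluripotent cells, from the miR-290 and miR-302 clusters, summed to 8.99 to 108 normalized reads in the MEF libraries, with miR-302a-3p, miR-302d-3p and miR-367-3p at 0, and to 424977 to 970561 in the pluripotent libraries. The sum of 6 fibroblast and mesenchymal miRNAs (both arms of miR-199a, and miR-199b, miR-214, miR-143 and miR-145) averaged 781492 in MEFs. It was 30.8% of that in ESCs, and 6.7%, 23.2% and 28.7% in the iPSC, NT-ESC and NT-iPSC libraries, where all 6 had reads. These percentages are no common share, since the 6 did not move together: miR-199a-3p had a mean VST of 18.56 in MEFs, 15.16 in ESCs, 19.34 in NT-ESCs and 19.64 in NT-iPSCs, while miR-143-3p had 21.29, 19.83, 15.96 and 16.23. In bulk RNA, fewer cells of a type and less RNA per cell cannot be told apart. The sequencing statistics given in the study set the reprogrammed libraries apart from the MEF and ESC libraries, so library handling and cell type cannot be told apart between these sets.

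Among members with at least 20 reads in every library, the largest difference between reprogrammed cells and ESCs was at the Gnas locus. The 5p arms rose there, miR-296-5p by more than an order of magnitude and miR-298-5p to a lesser extent. miR-296-3p did not rise with its partner strand, except in NT-iPSC replicate 52. In the ESC libraries miR-296-5p stood at 83, 106 and 129 normalized reads. It stood at 116, 239 and 215 in MEFs, so the MEF and ESC ranges overlapped. The iPSC libraries reached 2464 and 3197, the NT-ESC libraries 1716 and 1719 and the NT-iPSC libraries 2389 and 2007, and each of the 6 reprogrammed libraries lay above each of the 6 others. miR-296-5p is one of 3 miRNAs, with miR-134 and miR-470, described as binding the coding sequence of Nanog, Oct4 or Sox2 in differentiating mouse ESCs. Its mean was 21.2 times that of ESCs in reprogrammed cells, a difference of 4.38 (SE 0.23, limma adjusted p = 7.06e-09). Against MEFs the difference was 3.59 (SE 0.23, limma adjusted p = 2.81e-08), an 11.8-fold higher mean. MEFs exceeded ESCs by 0.79 (SE 0.27, limma adjusted p = 0.0178), which fell to 0.29 with TMM scaling (adjusted p = 0.314) and turned to -0.09 with total reads as library size. Its call was also lost without MEF replicate 14, MEF replicate 15 or ESC replicate 2 (adjusted p up to 0.0719). Among the reprogrammed types the order of means was iPSCs, NT-iPSCs and NT-ESCs, and no neighbours in it passed the test.

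miR-298-5p, a miRNA known to target the beta-secretase gene Bace1, was the most abundant member in every reprogrammed library. It stood at 2463, 3116 and 3847 normalized reads in ESCs and at 1994, 1747 and 2453 in MEFs. It rose to 11240 and 13640 in iPSCs, to 5957 and 6924 in NT-ESCs, and NT-iPSCs held 8540 and 11122, without overlap with ESCs or MEFs. The difference between reprogrammed cells and ESCs was 1.57 (SE 0.17, limma adjusted p = 4.38e-06, 3.05-fold) and that between reprogrammed cells and MEFs 2.17 (SE 0.17, limma adjusted p = 1.73e-07, 4.64-fold). MEFs differed from ESCs by -0.60 (adjusted p = 0.016), and by 0.04 with upper quartile scaling, and the call was lost without MEF replicate 14 or ESC replicate 4 (adjusted p up to 0.069). The other strand, miR-298-3p, was rare: 3, 7 and 2 reads in ESCs and 6, 4 and 5 in MEFs, against 38 and 61 in iPSCs, 13 and 12 in NT-ESCs, and 97 and 4 in the NT-iPSC pair. Scaled by size factors, its reads in iPSCs were 8.5 times those in ESCs (exact conditional 95% interval 4.65 to 17), a difference of 3.02 (SE 0.96, limma adjusted p = 0.0135) that was not called without iPSC replicate 63 (adjusted p = 0.0882). NT-ESCs (adjusted p = 0.262) and NT-iPSCs (adjusted p = 0.0756) did not pass against ESCs, and the NT-iPSC difference was -0.16 without replicate 51 and 4.17 without replicate 52 (adjusted p = 0.82 and 0.000127).

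miR-296-3p followed another pattern. It was abundant in ESCs, at 3067, 2657 and 2775 normalized reads, and in MEFs, at 1851, 2334 and 2472. The iPSC libraries held 1739 and 2148, the NT-ESC libraries only 463 and 545, and the NT-iPSC libraries 1638 and 5534. NT-ESCs were thus the only type whose libraries all lay below every other library. The difference of NT-ESCs from ESCs was -2.49 (SE 0.38, limma adjusted p = 0.000107), that from MEFs -2.13 (adjusted p = 0.000288) and that from iPSCs -1.94 (adjusted p = 0.0066). iPSCs differed from ESCs by -0.55 (adjusted p = 0.214) and NT-iPSCs by 0.09 (adjusted p = 0.839), neither of which passed the test. The mean of the 3 reprogrammed types differed from ESCs by -0.98 (SE 0.30, adjusted p = 0.00938). The NT-iPSC pair was 1.76 apart on the VST scale, more than 96.0% of the 732 miRNAs tested (median 0.30). Without NT-iPSC replicate 52 the NT-iPSC difference from ESCs was -0.79, and without replicate 51 it was 0.97.

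**Figure D1:**
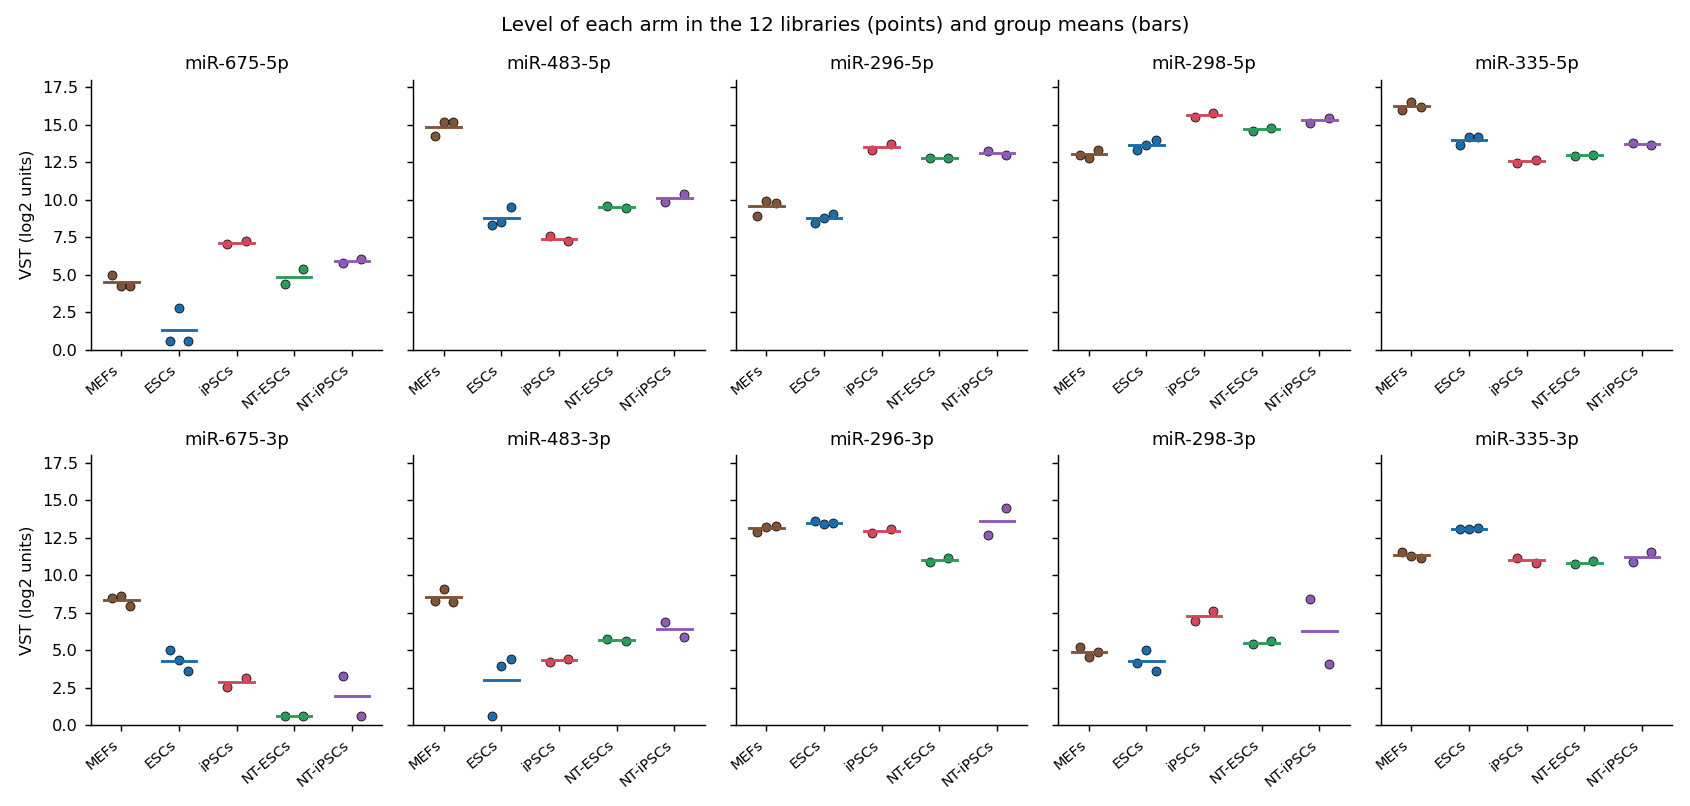
Level of each arm (VST, log2 units) in the 12 libraries, with 5p arms in the upper row and 3p arms in the lower. Points are libraries and bars are group means (n = 3 for MEFs and ESCs, 2 for the others). miR-296-5p and miR-298-5p lie higher in all 6 reprogrammed libraries than in MEFs and ESCs, miR-483 and miR-335-5p are highest in MEFs, and miR-335-3p is highest in ESCs.

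The 5p arm of miR-296 rose in every reprogrammed library and the 3p arm only in NT-iPSC replicate 52, so the hairpin's balance changed. The 5p arm took 2.64% to 4.43% of the miR-296 reads in the ESC libraries (mean 3.64%) and 5.89% to 9.29% in MEFs. It took 58.6% and 59.8% in iPSCs and 75.9% and 78.8% in NT-ESCs. The NT-iPSC pair was split, at 59.3% in replicate 51 and 26.6% in replicate 52, yet both exceeded every ESC and MEF library. The major strand was therefore 3p in ESCs, MEFs and NT-iPSC replicate 52, and 5p in the other 5 reprogrammed libraries. The mean share was 56.2 percentage points higher in the 6 reprogrammed libraries than in the 3 ESC libraries (exact permutation test over libraries, two-sided p = 0.0238, which is the lowest possible with 84 arrangements, adjusted p = 0.0342 over 273 hairpins). The same test called 69.6% of the 273 hairpins with both arms and at least 20 reads in every library, so that a call alone does not set miR-296 apart. Calls of arm shares are lost when any ESC library is left out, since 28 arrangements allow no p below 0.0714, and without 4 of the 6 reprogrammed libraries (adjusted p up to 0.0512). By size, its change exceeded that of 90.5% of these hairpins, whose median absolute change was 5.33 points, and 50 of them (18.3%) changed their major arm in the group means. Both arms together summed to 2939 ± 196 normalized reads in ESCs (SD, n = 3), 2409 ± 387 in MEFs (n = 3), 4774 ± 808 in iPSCs (n = 2), 5784 ± 2485 in NT-iPSCs (n = 2) and 2221 ± 60 in NT-ESCs (n = 2). The neighbouring miR-298 kept 99% to 100% of its reads on the 5p arm in every library (difference -0.174 points, adjusted p = 0.48).

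**Figure D2:**
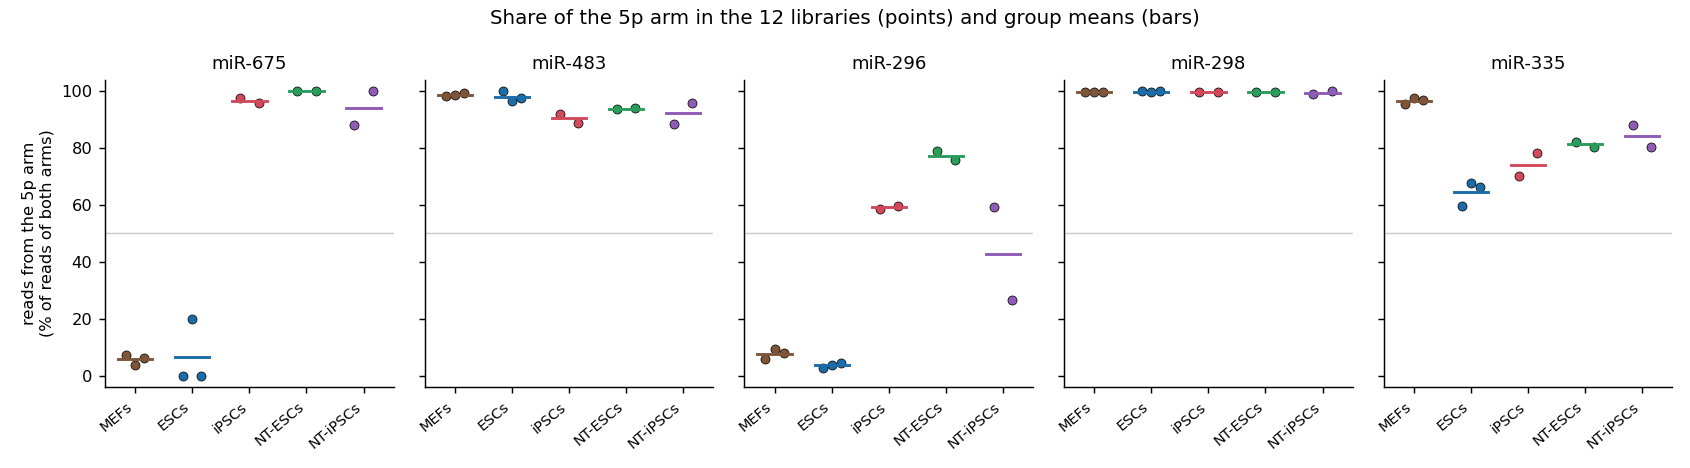
Reads of the 5p arm as a percentage of the reads of both arms of each hairpin, per library. Points are libraries, bars are group means, and the grey line marks equal arms. For miR-296 the 6 reprogrammed libraries lie between 26.6% and 78.8% and the ESC and MEF libraries at or below 9.29%, while miR-298 stays at or above 99%. miR-675 rests on 2 to 78 reads per library.

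miR-675 showed the same kind of contrast between its arms at far lower depth. Its 3p arm was found in MEFs, with 63, 75 and 46 reads, and sparsely in ESCs, with 6, 4 and 2. The iPSC libraries held 1 and 2 reads, the NT-ESC libraries 0 and 0, and the NT-iPSC libraries 2 and 0. In normalized reads the MEFs were at least 32.9-fold higher than NT-ESCs, against a floor of 3 reads per library, and 18.1-fold higher than ESCs by reads scaled by size factors (exact conditional 95% interval 10.1 to 35.7). The difference between MEFs and ESCs was 4.06 (SE 0.65, limma adjusted p = 0.000157), and that between reprogrammed cells and MEFs -6.58 (SE 0.57, adjusted p = 4.24e-07).

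The 5p arm of miR-675, a hairpin whose processing from H19 is known to restrain placental growth and to lower Igf1r, ran the other way. It had 41 and 46 reads in iPSCs, 15 and 18 in NT-iPSCs and 6 and 10 in NT-ESCs, against 5, 3 and 3 in MEFs and 0, 1 and 0 in ESCs. Every reprogrammed library exceeded every ESC library, while NT-ESC replicate 71 lay inside the MEF range in normalized reads. With a single read in the ESCs, the ratio to ESCs, scaled by size factors, was 89.6 in iPSCs (exact conditional 95% interval 15.7 to 3580), 38.1 in NT-iPSCs (6.38 to 1551) and 17.4 in NT-ESCs (2.7 to 729), and these intervals are wide. The VST difference between reprogrammed cells and ESCs was 4.65 (SE 0.52, limma adjusted p = 5.59e-06), and that of reprogrammed cells from MEFs 1.5 (SE 0.52, adjusted p = 0.0172), a call lost without MEF replicate 14 or 15 (adjusted p up to 0.0591). Over the MEF libraries the 5p arm held 3.85% to 7.35% of 49 to 78 reads, and over the reprogrammed libraries 88.2% to 100% of 6 to 48 reads. The ESC libraries held 2 to 6 reads of the hairpin, and miR-675 did not enter the test of arm shares, which needed 20 reads in every library. Both arms together gave 86.3 normalized reads in MEFs, 34.7 in iPSCs, 15.1 in NT-iPSCs, 6.79 in NT-ESCs and 4.89 in ESCs, so the hairpin as a whole was highest in MEFs.

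miR-483, from the Igf2 intron, was highest in the MEF libraries, which also held the muscle miRNAs described below. Its 5p arm stood at 4767, 9265 and 8905 normalized reads in MEFs and at 75.9, 86.3 and 179 in ESCs. The iPSC libraries held 44.8 and 36.2, the NT-ESC libraries 188 and 170, and the NT-iPSC libraries 218 and 325. MEFs lay far above every pluripotent library and iPSCs below every other library. MEFs exceeded ESCs 67.2-fold, by 6.11 (SE 0.34, limma adjusted p = 2.79e-08), and reprogrammed cells 46.7-fold, a difference of reprogrammed cells from MEFs of -5.87 (SE 0.30, adjusted p = 3.62e-09). The mean of the reprogrammed types differed from ESCs by 0.24 (SE 0.30, adjusted p = 0.475), which joins unequal parts: iPSCs differed from ESCs by -1.37 (adjusted p = 0.00672) and NT-iPSCs by 1.33 (adjusted p = 0.0084), and the difference of 0.76 for NT-ESCs did not pass (adjusted p = 0.0926). The iPSC call was lost without iPSC replicate 63 (adjusted p = 0.0535) and with total reads as library size (-0.96, adjusted p = 0.0572), and the NT-iPSC call without NT-iPSC replicate 52 (adjusted p = 0.0849). NT-ESCs passed without ESC replicate 4 (1.14, adjusted p = 0.0108) and with upper quartile scaling (0.99, adjusted p = 0.031).

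The 3p arm, known to repress the pro-apoptotic gene Bbc3 (Puma), had 56, 103 and 53 reads in MEFs and 0, 3 and 4 in ESCs. The iPSC libraries had 5 and 6 reads, the NT-ESC libraries 17 and 12 and the NT-iPSC libraries 33 and 16, all above the ESC libraries in reads. In normalized reads iPSC replicate 62, at 3.86, fell inside the ESC range of 0 to 4.56. Reprogrammed cells exceeded ESCs by 2.47 (SE 0.71, limma adjusted p = 0.00712). By type, iPSCs did not pass (1.34, adjusted p = 0.205), NT-ESCs passed with 2.67 (adjusted p = 0.0202) but not without NT-ESC replicate 71 or 72 (adjusted p up to 0.0847) or with only the groups compared (adjusted p = 0.0765), and NT-iPSCs passed with 3.41 (adjusted p = 0.0055) but not without replicate 51 (adjusted p = 0.0538). MEFs exceeded ESCs by 5.53 (SE 0.82, adjusted p = 7.95e-05). By reads scaled by size factors MEFs held 35.8 times the level of ESCs (exact conditional 95% interval 17.1 to 90.2). The share of the 5p arm was 98% in ESCs and 92.1% in reprogrammed cells, a difference of -5.86 points (two-sided exact permutation test, p = 0.0238, adjusted p = 0.0342), larger than in 52% of the hairpins tested.

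miR-335, known for repressing Sox4 and Rb1 and hosted by Mest, divided its arms between MEFs and ESCs. The 5p arm stood at 15645, 23261 and 17855 normalized reads in MEFs and at 3107, 4450 and 4481 in ESCs. The iPSC libraries held 1335 and 1588, the NT-ESCs 1910 and 1960 and the NT-iPSCs 3376 and 3059. MEFs lay above all other libraries, and NT-iPSC replicate 51 lay inside the ESC range. MEFs exceeded ESCs 4.72-fold, by 2.24 (SE 0.18, limma adjusted p = 5.66e-07), and the difference of reprogrammed cells from MEFs was -3.16 (SE 0.16, adjusted p = 3.44e-09). Against ESCs the mean of the 3 reprogrammed types differed by -0.92 (adjusted p = 0.000227). The iPSCs differed by -1.44 (adjusted p = 5.74e-05) and NT-ESCs by -1.03 (adjusted p = 0.000766), while the NT-iPSC difference of -0.30 did not pass the test (adjusted p = 0.201).

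The 3p arm of miR-335 was highest in ESCs. It stood at a VST of 13.07, 13.10 and 13.19 in ESCs, with a mean of 2166 normalized reads, against 630 in MEFs and 504, 445 and 605 in the iPSC, NT-ESC and NT-iPSC groups. In VST the MEF libraries had 11.56, 11.27 and 11.15, iPSCs 11.19 and 10.83, NT-ESCs 10.73 and 10.94 and NT-iPSCs 10.89 and 11.59. The lowest ESC library was thus far above the highest of the other 9. The difference of MEFs from ESCs was -1.79 (SE 0.20, limma adjusted p = 6.69e-06) and that of reprogrammed cells -2.09 (SE 0.17, adjusted p = 3.59e-07), a 4.18-fold lower mean. Reprogrammed cells differed from MEFs by -0.30 (adjusted p = 0.115), and scaling gave opposite calls, -0.72 with upper quartile scaling (adjusted p = 0.00194) and 0.71 with total reads as library size (adjusted p = 0.0029), with 0.04 for TMM scaling. The 5p arm held 59.8% to 67.6% of the miR-335 reads in ESCs, from 70.2% up to 88% after reprogramming and 95.5% to 97.5% in MEFs, without overlap between these sets. Reprogrammed cells exceeded ESCs by 15.3 points (exact permutation test, two-sided p = 0.0238, adjusted p = 0.0342), larger than in 67.8% of the hairpins tested.

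**Figure D3:**
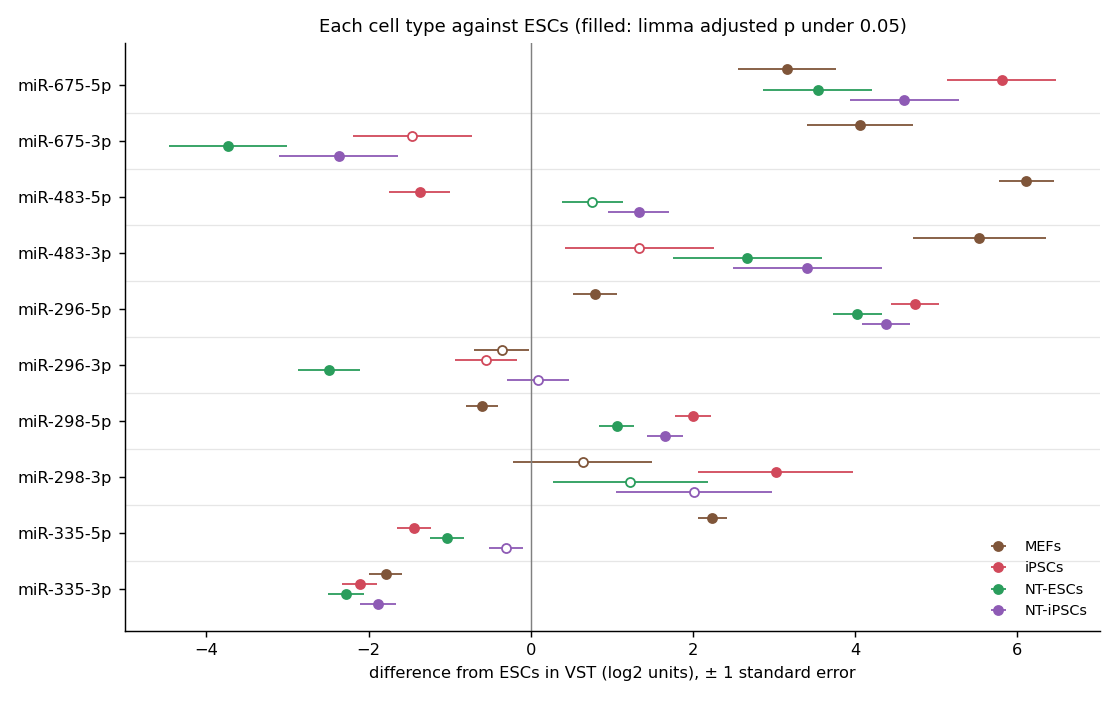
Difference of each cell type from ESCs in VST (log2 units) for the 10 members, with bars of 1 standard error from the limma model. Filled points have an adjusted p under 0.05. miR-296-5p differs from ESCs by 4.03 to 4.74 in the 3 reprogrammed types, and miR-335-3p by -2.28 to -1.79 in all 4 types.

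The hairpins of miR-483 and miR-335, each with an arm highest in MEFs, were set beside the fibroblast markers, since feeder cells lie under the pluripotent cultures. The mesenchymal sum ran from 220405 to 254052 in the ESC libraries and from 51696 to 53081 in the iPSC libraries. For NT-ESCs it ran from 176231 to 186095, and for NT-iPSCs from 207534 to 241278. iPSCs, the type with the lowest sum, also held the least miR-483 in normalized reads of both arms. They had 44.8, against 116 in ESCs, 191 in NT-ESCs and 292 in NT-iPSCs. Their miR-335 mean was also the lowest by this measure (1966 against 6179, 2380 and 3823), but its order against NT-ESCs is not settled. Neither arm passed between NT-ESCs and iPSCs (5p 0.41, limma adjusted p = 0.221, 3p -0.17, adjusted p = 0.649). The 3p mean was lower in NT-ESCs (445 normalized reads against 504). In CPM the 5p arm had means of 333 in iPSCs and 344 in NT-ESCs, and the 3p arm 116 and 79. All 6 markers were lower in iPSCs than in NT-ESCs and NT-iPSCs by mean VST. Against ESCs, miR-199a-3p (17.49 in iPSCs, 15.16 in ESCs) and miR-145-5p (11.60 and 11.38) were higher in iPSCs. The others were lower in iPSCs, miR-143-3p by the most (14.63 and 19.83). Between ESCs and the NT types the markers were split: miR-199a-3p, miR-199b-5p and miR-145-5p were lower in ESCs than in NT-ESCs and NT-iPSCs, as miR-483 was, and miR-143-3p, miR-199a-5p and miR-214-3p were higher in ESCs, as miR-335 was. The 3p arm of miR-675, also highest in MEFs, had means of 0, 0.86 and 1.16 normalized reads in NT-ESCs, NT-iPSCs and iPSCs. These means rest on 0 to 2 reads per library, too few to order the types. The miR-335 sum includes its 3p arm, which was highest in ESCs. The part of these markers in the levels of miR-483 and miR-335 was not tested. Muscle miRNAs (miR-1a, miR-206, miR-133a and miR-133b), which summed to 1076778 to 1437492 in the MEF libraries, stood at 0.239% to 0.942% of the MEF mean in the pluripotent types. miR-133b-3p was at 0 in all ESC libraries.

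**Figure D4:**
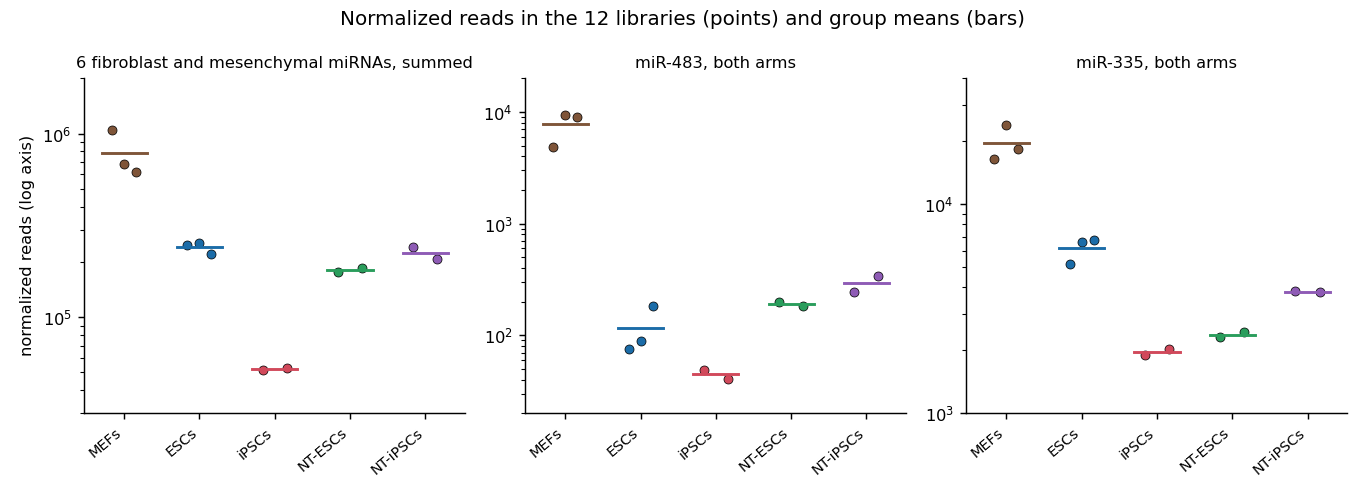
Normalized reads per library (log axes) of 6 fibroblast and mesenchymal miRNAs summed, of miR-483 and of miR-335, both arms together. Points are libraries and bars are group means. In all 3 panels MEFs are highest and iPSCs lowest, with ESCs next for the summed markers and miR-335 but below NT-ESCs and NT-iPSCs for miR-483 and for 3 of the 6 markers taken singly.

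Comparisons with ESCs or MEFs called most miRNAs of the table, and the count of members has to be read against that. Between MEFs and ESCs 8 of the 10 members passed the test, where 79% of all miRNAs tested passed. Of the 10, 6 were higher in MEFs (39.1% of all) and 2 higher in ESCs (39.9% of all), and for 8 the libraries did not overlap (79.9% of all). Of those calls 49.5% were higher in MEFs over all miRNAs, a split that became 60.4% with upper quartile scaling, 37.8% with TMM scaling and 29.6% with total reads. Between reprogrammed cells and ESCs 9 of 10 passed, against 82% of all. Of these, 5 were higher in reprogrammed cells (44% of all) and 4 lower (38% of all), and 5 members had libraries without overlap (71% of all). For the single types against ESCs the counts were 7 for iPSCs and 8 for NT-ESCs (75.8% of all for each) and 7 for NT-iPSCs (77.6% of all). Against MEFs 7 of 10 passed for reprogrammed cells (88.9% of all), with 6 free of overlap (80.6% of all). The counts were 8 for iPSCs (87.8% of all), 7 for NT-ESCs (84% of all) and 6 for NT-iPSCs (83.1% of all). With 10 members, these counts were not tested against the shares over all miRNAs. The median absolute difference of the members between reprogrammed cells and ESCs was 2.09, against 2.00 over all miRNAs.

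The 3 reprogrammed types were also compared with each other. Between NT-ESCs and iPSCs 4 of 10 passed, where 25.7% of all miRNAs did, and 1 was higher in NT-ESCs (12.6% of all) and 3 lower (13.1% of all). The difference was 2.13 for miR-483-5p (SE 0.42, limma adjusted p = 0.00415), -2.27 for miR-675-5p (adjusted p = 0.042), -1.94 for miR-296-3p (adjusted p = 0.0066) and -0.95 for miR-298-5p (adjusted p = 0.0149). Between NT-iPSCs and iPSCs 2 of 10 passed (26.5% of all), miR-483-5p with 2.70 (SE 0.42, adjusted p = 0.000826) and miR-335-5p with 1.14 (SE 0.23, adjusted p = 0.00349), both higher in NT-iPSCs (13.4% of all). With total reads as library size the difference of miR-335-5p was 0.60 and not called (adjusted p = 0.0746). These are the 2 hairpins that were set beside the mesenchymal sum above, which was also higher in NT-iPSCs and NT-ESCs than in iPSCs. The part of that sum in these differences was not tested. Between NT-iPSCs and NT-ESCs 1 of 10 passed (12.8% of all), miR-296-3p with 2.58 (SE 0.42, adjusted p = 0.00561), higher in NT-iPSCs (5.6% of all), for which the NT-iPSC pair was split as described. With only these types in the model its adjusted p was 0.0815. Without NT-ESC replicate 71 neither call of miR-296-3p held (adjusted p up to 0.0584), nor did that of miR-298-5p, which was also lost without iPSC replicate 63 (adjusted p up to 0.101). The call of miR-675-5p was lost without any 1 of its 4 libraries, with TMM scaling (adjusted p = 0.0574) and with no filter (adjusted p = 0.0517). NT-iPSCs, made by nuclear transfer from an iPSC, lay between iPSCs and NT-ESCs in mean VST for miR-675-5p, miR-675-3p, miR-296-5p, miR-298-5p and miR-298-3p, and outside that range for the other 5 members. For miR-298-3p neither NT-iPSC library did so, as 1 had a VST of 8.43, above both iPSC libraries, and the other 4.10, below both NT-ESC libraries. For miR-675-3p the mean also joins unlike libraries, at 3.30 and 0.59. None of the members named as lying between passed the test of NT-iPSCs against iPSCs or against NT-ESCs. The share of all miRNAs that lie between was not determined.

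Other imprinted miRNAs give the context. Of 92 tested miRNAs of the Dlk1-Dio3 domain, a large maternally expressed cluster, 83 passed between reprogrammed cells and ESCs (82% of all miRNAs tested), 52 higher (44% of all) and 31 lower (38% of all), with a median difference of 0.78 against 0.24 over all miRNAs. Between NT-ESCs and iPSCs 53 of the 92 passed (25.7% of all), each lower in NT-ESCs (13.1% of all), with a median of -0.93 against -0.10 over all miRNAs. Between NT-iPSCs and iPSCs 13 of the 92 were called (26.5% of all in either direction), all lower in NT-iPSCs. Over all miRNAs 50.5% of the calls in that comparison were higher in NT-iPSCs. Of 73 tested miRNAs of the Sfmbt2 intron, whose copies share reads, 54 passed between reprogrammed cells and ESCs (82% of all), 47 higher (44% of all) and 7 lower (38% of all). Between reprogrammed cells and MEFs 72 of the 73 were called (88.9% of all in either direction), all higher in reprogrammed cells, as were 54.5% of the calls over all miRNAs. Between NT-iPSCs and iPSCs 47 of these passed (26.5% of all in either direction), all lower in NT-iPSCs. Against ESCs the partners of miR-296 on pluripotency factor transcripts did not rise with it. In reprogrammed cells miR-134-5p differed from ESCs by -1.89 (SE 0.14, limma adjusted p = 1.24e-07) and miR-470-5p by -2.04 (SE 0.55, adjusted p = 0.00512). Against MEFs miR-470-5p was higher in reprogrammed cells, by 7.42 (SE 0.55, limma adjusted p = 1.11e-07), and miR-134-5p differed by -2.37 (SE 0.14, adjusted p = 1.11e-08). miR-470-5p had a mean VST of 2.48 in MEFs and 11.94 in ESCs, and miR-134-5p 18.50 and 18.02.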

How the data were processed

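Small RNA of 18 to 30 nt from 12 samples in 5 groups was sequenced on the Solexa platform. The authors cleaned the reads of adaptors, poor tags and contaminants, annotated them, and normalized and variance stabilized those on miRNAs with DESeq, and the deposited values are on that log2 scale. The submitters' processing notes name DESeq and the build mm8, with no version, and the miRBase release is not given in the sources used here.

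The transformation was inverted, and 100% of the 9458 nonzero values gave whole reads within 0.05 read. From these reads the deposited VST was recomputed to within 0.00069. Groups were taken from the sample titles. limma (3.58.1, R 4.3.3) with a trend was fitted to the values as deposited, 1 mean per group, two-sided, for 12 comparisons, and miRNAs with an adjusted p under 0.05 over 732 were called. Reprogrammed cells are the unweighted mean of the 3 types. The recovered reads were used for filters, scalings, voom and ratios of rare arms, and no other count test was run. Shares of the 5p arm were tested by exact permutation with SciPy 1.17.1. Tables used Python 3.11.15, numpy 2.4.6 and pandas 2.3.3, and plots matplotlib 3.10.9. On simulated data for reprogrammed cells against ESCs, the fit over 732 miRNAs called 94.5% of 200 that were given a log2 change of 1, and 0.94% of the unchanged. For NT-ESCs against iPSCs the same change was recovered in 64.5%. The changed miRNAs were drawn only from the more abundant ones, with a fixed spread between libraries and known size factors. These rates therefore do not cover rare arms, such as those of miR-675, or the choice of scaling.

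The members were named by the rule given in the report. All of their arms are named, with context lists of the Dlk1-Dio3 domain, the Sfmbt2 intron and the partners of miR-296. The members, lists and tests were chosen with earlier results of these data known. Sequences and positions are from RefSeq GRCm38.p6, and host genes from GENCODE (GRCm38). Alternatives were other library scalings (upper quartile, TMM, total reads), log2 of normalized reads plus 1, voom, other filters, only the groups compared, no trend, and each library left out.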

Additional observations from a re-analysis of the deposited data

Results flagged for a closer look

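Each of these results is a difference between kinds of reprogrammed cells by a limma test of the difference itself, with 2 libraries in each type. miR-675-5p was lower in NT-ESCs than in iPSCs (VST difference -2.27, adjusted p = 0.042), on 6 and 10 reads against 41 and 46, and all 4 fits with 1 library left out gave an adjusted p between 0.0698 and 0.219. miR-483-5p was higher in NT-ESCs than in iPSCs by 2.13 (adjusted p = 0.00415), and in NT-iPSCs than in iPSCs by 2.70 (adjusted p = 0.000826). The mesenchymal marker sum was also higher in NT-ESCs and NT-iPSCs than in iPSCs, and its part in these differences was not tested. miR-296-3p differed by -1.94 between NT-ESCs and iPSCs (adjusted p = 0.0066), and by 2.58 between NT-iPSCs and NT-ESCs (adjusted p = 0.00561), where leaving out a library gave 1.70 to 3.46. Without NT-ESC replicate 71 neither passed (adjusted p = 0.05 and 0.0584), and with only the groups compared the second did not pass (adjusted p = 0.0815). miR-298-5p differed by -0.95 between NT-ESCs and iPSCs (adjusted p = 0.0149). Without iPSC replicate 63 or NT-ESC replicate 71 it did not pass, with adjusted p up to 0.101. miR-335-5p was higher in NT-iPSCs than in iPSCs by 1.14 (adjusted p = 0.00349), and by 0.60 with total reads as library size (adjusted p = 0.0746).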

How the results depend on the processing

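Of 1039 differences of members recomputed under settings other than leaving out a library, 973 kept their direction and their side of the threshold, 15 lost the call, 34 gained it and 17 turned. With upper quartile scaling, miR-296-3p (0.28) and miR-298-5p (0.04) turned in MEFs against ESCs. With TMM scaling, miR-296-3p turned in NT-iPSCs against ESCs (-0.11) and iPSCs against MEFs (0.16), and miR-335-3p against MEFs in iPSCs (0.02), NT-iPSCs (0.22) and reprogrammed cells (0.04). With total reads as library size, miR-296-5p (-0.09) and miR-298-3p (-0.14) turned in MEFs against ESCs, miR-296-3p in NT-iPSCs against ESCs (-0.03) and against MEFs in iPSCs (1.12) and reprogrammed cells (0.39), and miR-335-3p against MEFs in iPSCs (0.99), NT-ESCs (0.45), NT-iPSCs (0.68) and reprogrammed cells (0.71) and in NT-iPSCs against iPSCs (-0.31). Total reads moved the median of all miRNAs by -0.88 in MEFs against ESCs and by 0.99 in reprogrammed cells against MEFs, and the share of calls that were higher in reprogrammed cells than in MEFs from 54.5% to 65.6% (iPSCs 55.4% to 68.1%, NT-ESCs 54.6% to 66.2%). In NT-ESCs against iPSCs that share went from 48.9% to 25.1%, in NT-iPSCs against iPSCs from 50.5% to 21% and in NT-iPSCs against NT-ESCs from 43.6% to 20.8%. The number of miRNAs called in NT-iPSCs against NT-ESCs was 94, 172 with voom and 47 with only the groups compared. For NT-iPSCs against iPSCs it was 194, and 107 with only the groups compared.

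Leaving out 1 library at a time, 611 of 696 differences of members kept direction and side. Those that turned ranged, in NT-iPSCs against MEFs, from -0.43 to 1.33 for miR-296-3p, from -0.80 to 3.53 for miR-298-3p and from -0.44 to 0.26 for miR-335-3p, and in NT-iPSCs against ESCs from -0.79 to 0.97 and from -0.16 to 4.17 for miR-296-3p and miR-298-3p. In NT-iPSCs against iPSCs they ranged from -2.27 to 0.44 for miR-675-3p, -0.24 to 1.52 for miR-296-3p, -3.18 to 1.15 for miR-298-3p and -0.12 to 0.58 for miR-335-3p. In NT-iPSCs against NT-ESCs they ranged from -1.39 to 2.94 for miR-298-3p, in NT-ESCs against iPSCs from -0.35 to 0.01 for miR-335-3p, and in NT-ESCs against MEFs from -0.10 to 0.86 for miR-675-5p. Numbers of miRNAs called ranged from 103 to 146 in NT-ESCs against iPSCs (188 with all libraries) and from 8 to 43 in NT-iPSCs against NT-ESCs. The number of hairpins with a called arm share ranged from 0 to 196: without an ESC library 28 arrangements allow no p below 0.0714, and without a reprogrammed library 191 to 196 hairpins had an unadjusted p under 0.05 by the exact permutation test. The change of miR-296 stayed between 52.4 and 62.9 points. The causes were not tested. No paired analysis was possible because the labels give no number to more than 1 group.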

Other observations

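By Pearson's r of VST over the 12 libraries, which share size factors and cell types, the miRNAs most like miR-298-5p were miR-323-3p (0.967), miR-154-3p (0.964) and miR-185-5p (0.962), of which miR-323 and miR-154 belong to the Dlk1-Dio3 domain. Those most like miR-483-5p were miR-99a-5p (0.987), miR-181a-2-3p (0.980) and miR-873-5p (0.972). miR-335-5p was closest to miR-29a-5p (0.977), miR-199a-5p (0.976) and miR-125b-1-3p (0.971), of which miR-199a-5p is one of the mesenchymal markers. miR-675-5p was closest to miR-218-2-3p (0.941), miR-329-5p (0.941) and miR-496-3p (0.938). miR-296-3p had no close match, with miR-410-5p at 0.796, miR-184-3p at 0.782 and miR-423-3p at 0.712. No test was made of these values.

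The pair of NT-iPSC libraries parted in opposite directions at the Gnas locus. Replicate 52 held 6354 reads of miR-296-3p and replicate 51 held 1904, while miR-298-3p had 4 reads in replicate 52 and 97 in replicate 51, a VST range larger than in 99.7% of miRNAs tested. The 5p arms of the same hairpins were 0.25 and 0.38 apart in VST, ranges larger than in 44.5% and 59.0% of miRNAs tested.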
